A study of Mus musculus with 9 samples.

Results

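The primitive endoderm genes described here are Gata4, Gata6, Sox17, Sox7, Pdgfra, Dab2, Hnf4a and Amn. These 8 genes, of 35532 gene symbols with a transcript in the deposited tables, were listed by name as known genes of the lineage. The rule for choosing them uses no measured value, though earlier results of these data were known at the time. They were read in 9 clones of E14, an established mouse embryonic stem (ES) cell line, by RNA-seq of libraries from a stranded mRNA kit. The clones had been picked from the parental culture because their lipid droplets varied in size, and were expanded with serum and leukaemia inhibitory factor (LIF), the cytokine that keeps ES cells undifferentiated, on gelatin. The labels name no genetic change or drug, and each line is 1 clone with 1 library. They do not tie a droplet size to any clone, so every clone is a sample of its own and no groups are compared.

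The primitive endoderm is the layer that lines the inner cell mass of the blastocyst and later forms the visceral and parietal endoderm of the yolk sac. Inner cell mass cells choose between it and the epiblast under control of FGF4 and the ERK kinases: cells with high ERK activity keep GATA6 and lose NANOG, and cells with NANOG and FGF4 become epiblast. GATA6, SOX17, GATA4 and SOX7 are transcription factors of the new lineage, PDGFRA is a receptor by which its cells are often recognised, HNF4A and AMN belong to the visceral endoderm that follows, and DAB2 is an adaptor of endocytosis. ES cells derive from the epiblast, and cultures with serum are known to hold scattered cells that make some of these transcripts. The measurements are of bulk RNA, in which fewer cells of a type and less RNA per cell cannot be told apart.

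All 8 genes were at the low end of what these libraries could measure. Levels in one gene over the clones are given as CPM, the estimated counts scaled to a library's effective total. Levels between genes are given as TPM, which also divides by transcript length. The summed estimated counts per clone ranged from 14309662 to 10783718, with a median of 13802506. A floor set at 3 counts, near the one-sided 95% upper bound of a count of 0, corresponded to 0.292 to 0.209 CPM. Of the 72 values of 8 genes in 9 clones, 41 reached 1 CPM and 1 reached 5 CPM, which was Dab2 in clone 11. No value was 0, and 3 values, each of Sox17, rested on 3 counts or fewer. The range of a gene is the log2 CPM of its highest clone less that of its lowest, and a test against counting noise asks whether the 9 libraries differ beyond Poisson sampling. The exact Poisson intervals of levels and exact conditional binomial intervals of ratios below are 95% intervals and cover counting error only. Each gene has 36 ratios between clones, whose intervals are not adjusted for their number, and the highest and lowest clones were picked as extremes. Beyond counting means that the interval of a ratio leaves out 1. A spread between repeat libraries of one clone was not measured.

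On the per-length scale, Dab2 had the highest median over the clones at 1.91 TPM, followed by Amn at 1.5 TPM and Gata4 at 1.2 TPM. Pdgfra had a median of 0.619 TPM, Hnf4a of 0.565 TPM, Sox7 of 0.485 TPM, Sox17 of 0.413 TPM and Gata6 of 0.328 TPM. The TPM ranges of all 8 genes overlapped with that of at least 1 other member, so this order is one of medians and not of every clone. The epiblast factors, which define ES cells, were far above in the same libraries. Pou5f1, which encodes OCT4, had a median of 1259 TPM, Nanog of 218 TPM and Sox2 of 202 TPM. Fgf4, the ligand that drives the choice in the embryo, had a median of 60.3 TPM.

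**Figure D1:**
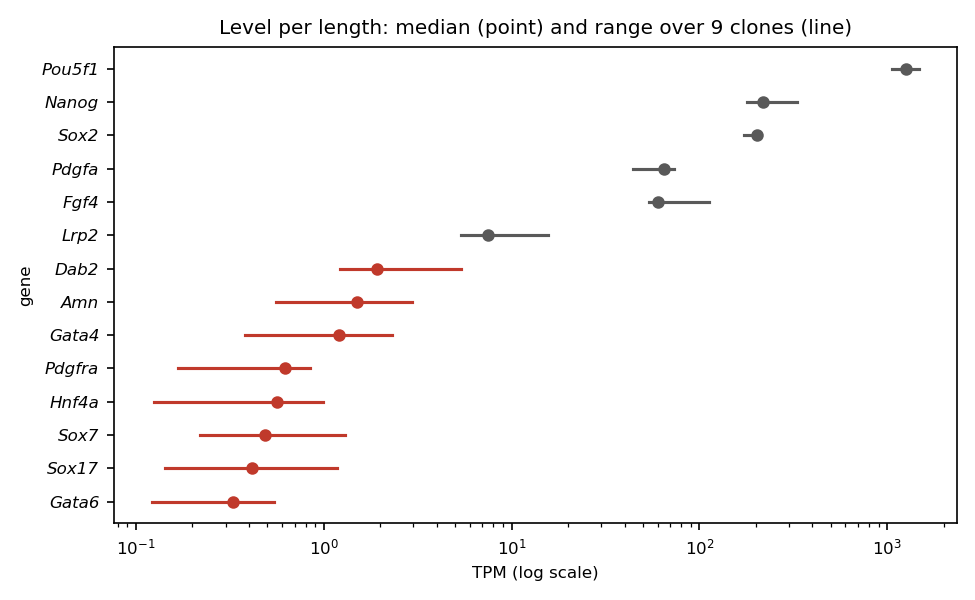
Levels per length in TPM (log axis) of the 8 primitive endoderm genes (red) and of 6 other genes named in the text (grey); points are medians and lines run from the lowest to the highest of the 9 clones. Every primitive endoderm gene had a median under 2 TPM, between 0.328 TPM for Gata6 and 1.91 TPM for Dab2, against 1259 TPM for Pou5f1.

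Hnf4a and Dab2 have alternative starts whose use the deposited transcripts bear on, and their promoter windows are shown for that reason. HNF4A is made from a distal start, known as the main one of pancreatic beta cells, and from a proximal start, known as the main one of adult liver. RefSeq windows on the GRCm38.p6 build were found for 4 of the 8 genes, in 6 windows of 300 bases that run from 250 bases before a transcript start to 50 after it. The bases from 250 to 51 before the start are printed, all on the plus strand. Both strands of the whole windows were searched for AGATAA, which the GATA family is known to bind, and for ACAAT, which SOX factors bind. Capitals mark a match in the printed bases. The windows are chr2:163506607-163506806 for the distal and chr2:163546905-163547104 for the proximal start of Hnf4a, and chr15:6299539-6299738 for the distal and chr15:6386498-6386697 for the proximal start of Dab2.
Hnf4a distal: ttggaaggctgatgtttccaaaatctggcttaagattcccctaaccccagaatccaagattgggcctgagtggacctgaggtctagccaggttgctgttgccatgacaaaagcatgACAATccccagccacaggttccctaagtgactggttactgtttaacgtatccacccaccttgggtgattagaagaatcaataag
Hnf4a proximal: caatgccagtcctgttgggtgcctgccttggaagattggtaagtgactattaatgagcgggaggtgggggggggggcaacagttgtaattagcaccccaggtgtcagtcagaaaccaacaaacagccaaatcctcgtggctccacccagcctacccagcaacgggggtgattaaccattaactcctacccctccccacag
Dab2 distal: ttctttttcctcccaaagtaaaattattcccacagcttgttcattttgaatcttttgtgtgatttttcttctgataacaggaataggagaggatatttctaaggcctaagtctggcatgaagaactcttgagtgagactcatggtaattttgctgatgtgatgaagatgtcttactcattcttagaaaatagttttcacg
Dab2 proximal: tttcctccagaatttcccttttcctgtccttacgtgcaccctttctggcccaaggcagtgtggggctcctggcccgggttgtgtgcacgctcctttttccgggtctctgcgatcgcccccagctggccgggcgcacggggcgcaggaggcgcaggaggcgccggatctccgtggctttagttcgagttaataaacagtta

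The distal Hnf4a window held 1 ACAAT, as did 31.0% of 32817 promoter windows of the same length, and 1 AGATAA beyond the printed bases. The distal Dab2 window also held 1 AGATAA beyond the printed bases, a motif that 11.2% of windows held. The proximal windows of Hnf4a and Dab2 and the windows of Pdgfra and Amn held neither motif. A match describes letters and is not a binding site.

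Gata6, at chr18:11052064-11085635 on the plus strand of GRCm38, encodes the factor that acts earliest in the choice of primitive endoderm. Clone 1 had 13 counts (1.27 CPM), clone 6 had 15 (1.05 CPM), clone 17 had 13 (0.934 CPM) and clone 13 had 12 (0.906 CPM). Lower levels were found for clone 4 with 10 counts (0.762 CPM), clone 11 with 7 (0.489 CPM), clone 10 with 6 (0.435 CPM), and clones 14 and 8 with 4 each (0.292 and 0.286 CPM). Clone 1 was 4.44 times clone 8 (interval 1.37 to 18.7), and 6 of the 36 ratios between clones had an interval that left out 1. No clone differed from its neighbour in the order beyond counting. Gata6 had a mean under 1 CPM and was not in the main test. Over all 24598 genes with any count, its adjusted p against counting noise was 0.0362 (chi-square against Poisson sampling, Benjamini-Hochberg), where 55.2% of genes passed 0.05.

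Gata4, at chr14:63198922-63271692 on the minus strand, encodes a zinc finger factor that follows GATA6 in the lineage. It was highest in clone 17 with 43 counts (3.09 CPM), then in clone 14 with 34 counts (2.48 CPM) and in clone 8 with 31 (2.21 CPM). Below them came clone 11 at 1.19 CPM, clone 10 at 1.09, clone 6 at 1.05, clone 1 at 0.877, clone 13 at 0.68 and clone 4 at 0.61 CPM, or 8 counts. Clones 17 and 14 were each above all 6 of these clones beyond counting, and clone 8 above 5 of them, all but clone 11. Clone 17 was 5.07 times clone 4 (interval 2.35 to 12.5). Gata6 was lowest in clones 8 and 14, which were among the 3 clones highest in Gata4. These 2 clones had 4 counts of Gata6 each and were not apart from clones 13, 4, 11 and 10 beyond counting. Clone 17, the highest in Gata4, had 0.934 CPM of Gata6, above the median of 0.762 CPM.

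Of the 8 GATA genes and FOG cofactors, 5 had a mean of 1 CPM or more. Of these, 1 (Gata4) reached a range of 2 log2 units, as 7.93% of all genes with such a mean did, and 4 passed the test against counting noise, as 89.4% did. The median range was 1.31, against 0.78 for all genes and 1.4 for genes of 1 to 5 CPM on average, the band of all of these but Zfpm1. In that band 23.9% of genes reached a range of 2 and 72.1% passed the test. Gata2, a factor of blood and trophoblast, was highest in clone 11 (4.89 CPM) and lowest in clone 17 (1.94 CPM). Gata3, a trophoblast factor, was highest in clone 14 (2.41 CPM) and lowest in clone 1 (0.585 CPM). Zfpm1, which encodes the cofactor FOG1, was highest in clone 10 (9.27 CPM) and lowest in clone 8 (3.64 CPM). Gata1, a factor of red blood cells, lay between 1.88 and 0.906 CPM and did not pass (adjusted p 0.385, chi-square). Gata5 had 25 counts over all 9 clones and Zfpm2, for the cofactor FOG2, 111 counts, so both were under the filter.

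Sox17, at chr1:4490931-4497354 on the minus strand, and Sox7, at chr14:63943673-63950732 on the plus strand, encode factors of the SOX F family. Sox17 was the least abundant of the 8 in counts. It had 9 counts (0.652 CPM) in clone 10, 7 each in clones 13 and 14, 6 in clone 8, 5 in clone 17, 4 in clone 11, 3 in clone 6, 2 in clone 4 and 1 (0.0975 CPM) in clone 1. Clone 10 was 6.69 times clone 1, but the interval of 0.927 to 293 held 1, as it did for each of the other pairs. A difference between clones in Sox17 was therefore not detectable at this depth, also in the test over genes with any count (adjusted p 0.374, chi-square).

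Sox7 was measured on firmer ground and was highest in clone 17 with 42 counts (3.02 CPM), then in clone 1 with 22 (2.14 CPM) and in clone 8 with 25 (1.78 CPM). Below them came clone 6 at 1.19 CPM, clone 10 at 1.09, clone 13 at 1.06, clone 14 at 0.802, clone 11 at 0.629 and clone 4 at 0.534 CPM, or 7 counts. Clone 17 was above 7 clones beyond counting, all but clone 1, and was 5.66 times clone 4 (interval 2.52 to 14.9). Clones 1 and 8 were each above clones 14, 11 and 4. Gata4 and Sox7 lie 671981 bases apart on chromosome 14 and were both highest in clone 17 and lowest in clone 4. They parted in clone 14, which was second highest for Gata4 and among the 3 lowest for Sox7, and in clone 1, which was second highest for Sox7 and among the 3 lowest for Gata4. The third SOX F gene, Sox18, a factor of blood vessels, reached 1.38 CPM in clone 10, was lowest in clone 13 (0.529 CPM) and had a mean under 1 CPM.

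Hnf4a, at chr2:163506808-163572910 on the plus strand, encodes a nuclear receptor that turns on genes of the visceral endoderm and later of the liver. It had the widest range of the 6 testable members. Clones 13 and 17 had 40 counts each (3.02 and 2.87 CPM), clone 8 had 35 (2.5 CPM), and clones 1 and 6 had 25 each (2.44 and 1.74 CPM). Clones 14 and 4 followed at 1.17 and 0.915 CPM, and the lowest were clone 10 with 6 counts (0.435 CPM) and clone 11 with 5 counts (0.349 CPM). Clone 13 was 8.65 times clone 11 (interval 3.41 to 28.1). Clones 13, 17, 8, 1 and 6 were all above both clones 10 and 11 beyond counting, and 20 of the 36 ratios left out 1, the most of any member.

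Of the 14 genes of the HNF network and of visceral endoderm products, 6 had a mean of 1 CPM or more, of which 5 passed the test against counting noise (89.4% of all genes). Apoe, for a lipoprotein of lipid transport, was highest in clone 17 (1003 CPM) and lowest in clone 11 (310 CPM). The classical products of visceral endoderm were near 0: Afp, for alpha-fetoprotein, and Ttr, for transthyretin, had 2 counts each over all 9 clones, and Apoa1, for an apolipoprotein, had 11. Foxa2, an endoderm factor, had 36.

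Pdgfra, at chr5:75152292-75198215 on the plus strand, encodes the alpha receptor for platelet-derived growth factor. It was highest in clones 6 and 4, with 33 and 30 counts (2.3 and 2.29 CPM), followed by clone 10 at 1.88 CPM and clone 8 at 1.71 CPM. Below them came clone 11 at 1.33 CPM, clone 17 at 1.01, clone 14 at 0.875, clone 13 at 0.831 and clone 1 at 0.78 CPM, or 8 counts. Clones 6 and 4 were each above clones 17, 14, 13 and 1 beyond counting. Clone 6 was 2.95 times clone 1 (interval 1.34 to 7.4), the narrowest range of the 6 testable members. Pdgfra was high in clone 4, in which Gata4, Sox7 and Dab2 were lowest.

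The ligand Pdgfa, which acts through PDGFRA on primitive endoderm cells, was well measured and varied less, with 69.6 CPM for clone 1 as the highest and 40.7 CPM for clone 10 as the lowest level. Of the 6 PDGF genes, 5 had a mean of 1 CPM or more, and all 5 passed the test against counting noise (89.4% of all genes). Pdgfb alone had a range of 2 or more (7.93% of all genes). Pdgfb, a ligand of both receptors, was highest in clone 11 (21.3 CPM) and lowest in clone 17 (4.24 CPM) (5.03-fold, interval 3.79 to 6.76). Pdgfrb, for the beta receptor, was highest in clone 10 (5.79 CPM) and lowest in clone 14 (1.6 CPM). Pdgfc, a ligand of the alpha receptor, was highest in clone 17 (28.1 CPM) and lowest in clone 10 (11.1 CPM), and Pdgfd had 46 counts in all.

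Dab2, at chr15:6299788-6440712 on the plus strand, encodes an adaptor that links receptors of the LDL receptor family to clathrin, and is needed for visceral endoderm to form an ordered layer. It was the most abundant member in counts. Clone 11 had 112 counts (7.83 CPM), clone 10 had 53 (3.84 CPM) and clone 6 had 49 (3.42 CPM). Below them came clone 1 at 2.73 CPM, clone 13 at 2.57, clone 14 at 2.12, clone 17 at 2.08, clone 8 at 1.86 and clone 4 at 1.6 CPM, or 21 counts. Clone 11 was above every other clone beyond counting, 2.04 times clone 10 (interval 1.46 to 2.88) and 4.89 times clone 4 (interval 3.05 to 8.2). Clones 11 and 10 were the only neighbours, in the order of any member, whose ratio had an interval that left out 1. Without clone 11 the range of Dab2 was 1.19 log2 units, against 2.19 with it.

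Marker lists of fibroblasts, trophoblast and mesendoderm also had their highest sums in clones 11 and 10, though not every gene of a list was highest there. Their part in the Dab2 values was not tested. The 8 fibroblast markers together gave 68.0 CPM in clone 11, 59.8 in clone 10, 18.3 in clone 6, the next highest in Dab2, and between 24.5 and 8.57 CPM in the rest. Col1a1, for a chain of type I collagen, made up most of this, with 42.5 CPM in clone 11, 33.4 in clone 10 and at most 7.17 CPM in the rest. Col1a2, for the other chain, had 7.89 CPM in clone 11 and 8.76 in clone 10, above each of the rest. Col3a1, for type III collagen, had 4.4 CPM in clone 11, 4.2 in clone 10 and at most 1.07 CPM in the rest. Of the list's 8 genes, 5 had a mean of 1 CPM or more, and Lum, Dcn and Postn were under the filter. The 3 collagen genes had a range of 2 or more, as did 7.93% of all genes at that mean and 23.9% of those of 1 to 5 CPM. Dcn had 9 of its 22 counts and Postn 7 of its 8 counts in clone 11, and Lum had 0 counts in clones 10 and 11. Pdgfrb and Thy1, the other markers of the list, were not highest in clone 11, with 4.61 and 7.55 CPM there. The 9 trophoblast markers together gave 591 CPM in clone 11, 580 in clone 10, 68.8 in clone 6 and between 148 and 36.4 CPM in the rest, most of it keratins such as Krt18, with 182 CPM in clone 11. Of its 9 genes, 7 had a mean of 1 CPM or more and 5 of these a range of 2 or more, beside the same shares of all genes. Cdx2, a trophoblast and gut factor, had 5.66 CPM in clone 11, 3.11 in clone 10 and at most 3.05 CPM in the rest. Hand1, a factor of trophoblast and heart, had 3.14 CPM in clone 11, 2.97 in clone 10 and at most 0.698 CPM in the rest. Plac1 and Elf5 were under the filter: Plac1 was highest in clone 10 (0.362 CPM, 5 counts) and next in clone 11 (0.21 CPM, 3 counts), and Elf5 was highest in clone 13 (1.59 CPM). The 8 markers of definitive endoderm and mesendoderm together gave 42.5 CPM in clone 11, 21.1 in clone 10, 13.5 in clone 6 and between 14.2 and 7.07 CPM in the rest. T, for the primitive streak factor brachyury, was highest in clone 11 (28.2 CPM, most of the sum there) and lowest in clone 14 (0.365 CPM). Cxcr4, the list's other gene with a range of 2 or more, was highest in clone 1 (4.39 CPM) and had 1.33 CPM in clone 11. Eomes was highest in clone 11 (7.89 CPM) and Hhex in clone 17 (2.51 CPM). Foxa2, Gsc, Mixl1 and Cer1 were under the filter: Mixl1 was highest in clone 11 (3.07 CPM) and the others in clones 10 or 4. The endothelial list, set beside the SOX F genes, which vessels also express, had its highest sum in clone 1 (227 CPM) and its lowest in clone 17 (76.4 CPM), most of it Pecam1, which ES cells also make. Kdr, for a receptor of vascular endothelial growth factor and the 1 gene of the list with a range of 2 or more, was highest in clone 11 (8.45 CPM) and lowest in clone 14 (0.802 CPM). Tek and Tie1, for receptors of the TIE family, were highest in clone 1 (42.8 and 1.36 CPM), and Cdh5, Erg and Sox18 were under the filter. The cardiac list, set beside Gata4 and Gata6, gave sums between 7.53 CPM (clone 10) and 2.5 CPM (clone 8), and 6 of its 8 genes had a mean under 1 CPM. The gut and kidney list, set beside Hnf4a and Amn, summed to between 5.1 and 2.49 CPM, with Slc34a1 at 0 counts in all clones.

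Amn, at chr12:111271095-111276426 on the plus strand, encodes amnionless, the membrane partner that brings the receptor cubilin to the cell surface. Clone 1 had 34 counts (3.31 CPM), clone 11 had 33 (2.31 CPM), clone 4 had 26 (1.98 CPM) and clone 6 had 28 (1.95 CPM). Below them came clone 13 at 1.51 CPM, clone 10 at 1.16 and clone 14 at 0.875 CPM, and the lowest were clone 17 with 9 counts (0.647 CPM) and clone 8 with 7 counts (0.5 CPM). Clone 1 was 6.63 times clone 8 (interval 2.89 to 17.7). Clones 1, 11, 4 and 6 were each above clones 14, 17 and 8 beyond counting. Those 3 low clones were the 3 highest in Gata4.

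All 6 genes of the endocytic receptor complex had a mean of 1 CPM or more and passed the test against counting noise, which 89.4% of all genes at that level did. Their median range was 1.7, against 0.78 for all genes and 1.4 for genes of 1 to 5 CPM on average, the band of Cubn, Amn and Dab2. Cubn, for cubilin, was highest in clone 1 with 3.12 CPM, the clone highest in its partner Amn, and lowest in clone 14 with 0.729 CPM (4.28-fold, interval 2.05 to 9.75). Lrp2, for the large receptor megalin, was highest in clone 11 (152 CPM) and lowest in clone 13 (53.5 CPM) (2.84-fold, interval 2.6 to 3.09), and was second highest in clone 10, as Dab2 was. Lrpap1, the chaperone of LRP receptors, had the narrowest range of the list, 0.62, between 169 and 109 CPM. Dab1, the neuronal relative of Dab2, was highest in clone 17 (25.0 CPM) and lowest in clone 1 (8.87 CPM). On the per-length scale Lrp2 had a median of 7.53 TPM, above all 8 primitive endoderm genes.

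**Figure D2:**
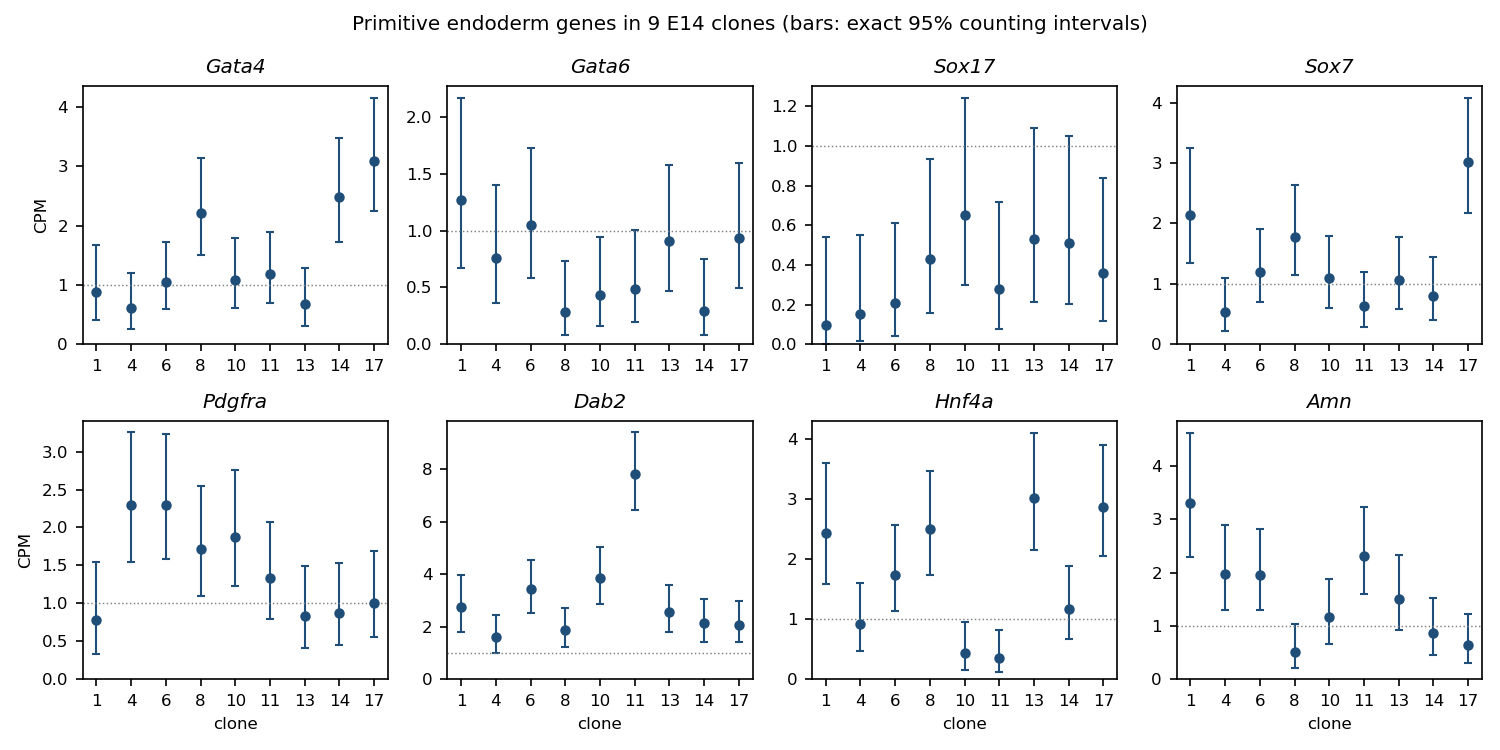
CPM of each primitive endoderm gene in each of the 9 clones (points) with exact 95% Poisson counting intervals (bars); the dotted line is 1 CPM, and each panel has its own scale. Dab2 in clone 11, at 7.83 CPM, lies above every other clone, whereas the intervals of Sox17 all overlap.

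Of the 8 genes, 6 had a mean of 1 CPM or more, all but Gata6 and Sox17. The range was 2 or more in 5 of the 6 and 1 or more in all 6. Among all 13361 genes that passed the same filter, 7.93% had a range of 2 or more and 35.2% a range of 1 or more. Ranges were wider at low levels: among the 2953 genes of 1 to 5 CPM on average, the band of all 6 testable members, the shares were 23.9% and 77.8%. The median range of the 6 was 2.2, against 0.78 for all 13361 genes and 1.4 for the 2953 of low level. The ranges were 2.67 for Hnf4a, 2.42 for Amn, 2.21 for Sox7, 2.19 for Dab2, 2.09 for Gata4 and 1.4 for Pdgfra. Some lay close to the limit of 2: without clone 4 or without clone 17, 3 of the 6 reached it, and on the log2(TPM + 1) scale, which compresses low values, none did.

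All 6 varied beyond counting noise (chi-square test of counts against Poisson sampling, with Benjamini-Hochberg adjustment over all 13361 genes). The adjusted p was 6.54e-24 for Dab2, 1.41e-11 for Hnf4a, 3.27e-09 for Gata4, 2.21e-08 for Sox7, 2.62e-08 for Amn and 0.00076 for Pdgfra. In the same test 89.4% of all genes and 72.1% of those with a mean of 1 to 5 CPM passed, so most genes passed as the members did. The p-values say that these libraries differ and measure nothing between groups or repeats.

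**Figure D3:**
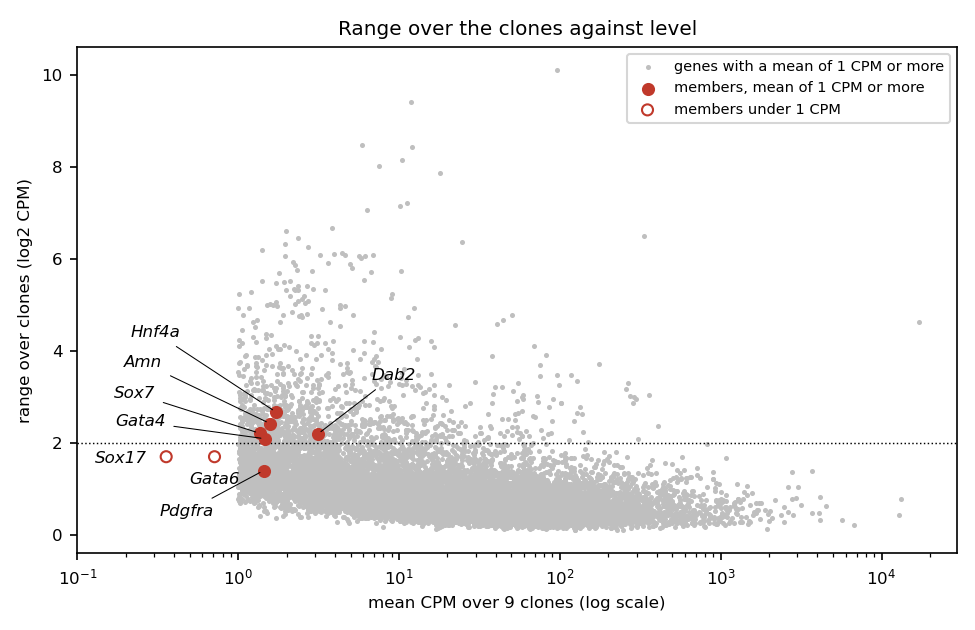
Range over the 9 clones (highest minus lowest clone, log2 CPM) against mean level (CPM, log axis) for 13361 genes (grey) and the primitive endoderm genes (red; open circles are Sox17 and Gata6, under 1 CPM). The dotted line marks a range of 2, which 5 of the 6 filled points exceed and Pdgfra, at 1.4, does not.

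The 8 genes did not share one order of clones. They were highest in 6 different clones and lowest in 4 different clones. Most of these extremes were not resolved: only clone 11 for Dab2 was apart from the next clone beyond counting, and no ratio of Sox17 left out 1. Clone 17 was highest in Gata4 and Sox7, clone 1 in Gata6 and Amn, clone 10 in Sox17, clone 6 in Pdgfra, clone 11 in Dab2 and clone 13 in Hnf4a. Clone 4 was lowest in Gata4, Sox7 and Dab2, clone 8 in Gata6 and Amn, clone 1 in Sox17 and Pdgfra, and clone 11 in Hnf4a. Each gene's highest and lowest clone was the same with median-ratio or plain library scaling. On the log2(TPM + 1) scale, 7 highest and 5 lowest clones were the same. Summed over the 8 genes the levels were nearer to each other, with 14.4 CPM for clone 11 as the highest and 8.84 CPM for clone 4 as the lowest sum. Most of the sum in clone 11 was Dab2, at 7.83 CPM. The place of clone 11 as highest rested on that gene and does not describe the other members. On chromosomes that carry a member, the median deviation of genes that averaged at least 5 CPM lay between 0.086 (chromosome 18 in clone 8) and -0.024 log2 units. Each is a median over 249 to 841 genes and cannot be set against the range of 1 gene. Gene dosage was not tested.

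**Figure D4:**
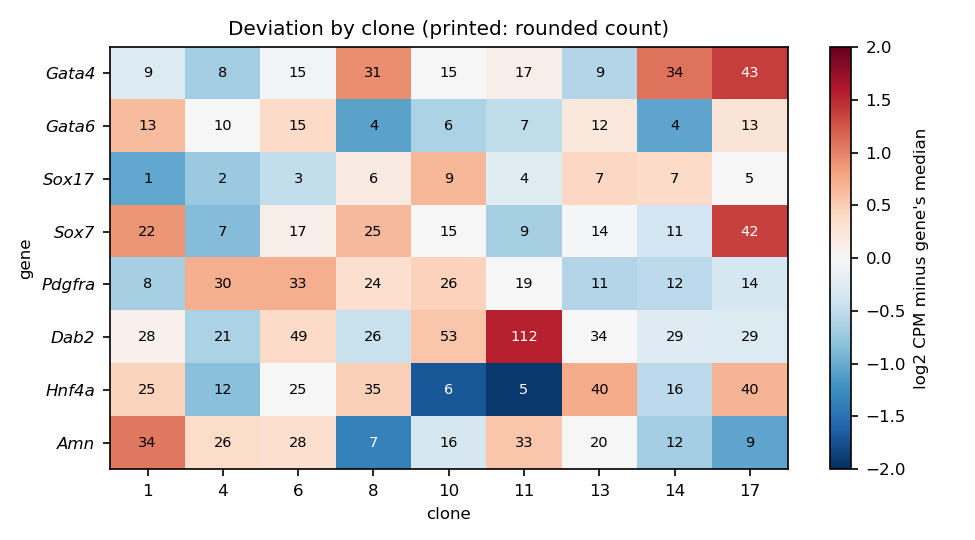
Deviation of each primitive endoderm gene (rows) in each clone (columns) from its own median over clones, in log2 CPM (colour), with the rounded count printed in each cell. No column is of one colour: clone 17 is high in Gata4 and Sox7 and low in Amn, and clone 11 is high in Dab2 with 112 counts and low in Hnf4a with 5 counts.

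The likeness of patterns was described by the root mean square (RMS) difference of log2 CPM over the 9 clones, each gene taken from its own median, among 10149 protein-coding genes that averaged at least 5 CPM. Another member was nearer than a gene with no change at all for Gata4, Hnf4a and Amn, and none was for Sox7, Pdgfra and Dab2. Counting noise in a second member adds to its distance, and the flat gene carries none. Members that share a pattern can therefore lie as far apart as a flat gene, and these distances do not decide whether patterns differ. Gata4 and Sox7 were 0.71 apart, where a flat gene was 0.74 from Gata4 and 0.70 from Sox7. Amn and Gata6 were 0.63 apart, where a flat gene was 0.76 from Amn. Hnf4a was 0.80 from Sox7 and 1.0 from a flat gene. Dab2 was 0.77 from Amn, its nearest member, and 0.63 from a flat gene, and Pdgfra was 0.81 from Sox17 and 0.54 from a flat gene.

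Genes outside the lineage lay nearer, but they averaged at least 5 CPM, with less counting noise than the members, and were picked from many more candidates. Nearest to Gata4 were Mapk4, for an atypical MAP kinase, at an RMS of 0.16, Slc38a7, for a glutamine transporter, at 0.19 and Adcy1, for an adenylyl cyclase, at 0.23. Mapk4 was highest in clone 17 (14.8 CPM) and lowest in clone 4 (3.74 CPM), the same clones as for Gata4. Nearest to Sox7 were Atp2a3, a calcium pump gene, at 0.33, Vegfc, for a growth factor of lymphatic vessels, at 0.40 and Optn, for optineurin, at 0.40. Nearest to Pdgfra were Kcnk6, a potassium channel gene, at 0.34, Pop1 at 0.39 and Tdrd3 at 0.40. These 3 were little nearer than a flat gene at 0.54.

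Nearest to Dab2 were Sema3e, for a secreted guidance cue, and Lpgat1, for a lysolipid acyltransferase, each at 0.25, and Nuak1, a kinase gene, at 0.27. All 3 were highest in clone 11, where Sema3e was at 40.2 CPM. Nearest to Hnf4a were Mras, a RAS relative, at 0.39, Mitf, for a factor of pigment cells, at 0.42 and Fam189a2 at 0.43. Mras was highest in clone 17 (93.3 CPM) and lowest in clone 11 (19.8 CPM). Nearest to Amn were Sox15, for a SOX factor expressed in ES cells, at 0.28, and Cabp7 and Auh, each at 0.31. Sox15 was highest in clone 1 (22.4 CPM) and lowest in clone 8 (4.71 CPM), the same clones as for Amn. These genes were picked as the nearest of 10149, and their nearness was not tested.

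The transcripts behind the gene values were summed by where they start. All 204.1 estimated counts of Hnf4a over the 9 clones lay on transcripts of the proximal start (163546817 to 163547188), and 0 on the transcript of the distal start at 163506808. The distal-start transcript in the table is a short one, and reads from the shared downstream exons of a longer RNA could not be assigned to it. A transcript of 4356 bases held 83.7% of the gene's counts and one of 4362 bases held 16.0%.

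Dab2 likewise drew most of its counts, 76.1%, from the proximal start (6386598 to 6386779), 14.2% from an internal start (6422240 to 6423162) and 7.3% from the distal start (6299788 to 6299868). The excess of clone 11 lay at the proximal start, with 94.1 estimated counts there, against 36.3 in clone 10 and 0 at the distal start in clone 11. In clone 17 the distal start had 12.1 estimated counts and the proximal start 14.7. Gata4 drew 61.7% from its middle start, 22.2% from its most downstream start and 16.1% from its most upstream start. Pdgfra drew 72% from its second start and 27.1% from its most upstream start, and Sox17 drew 71.5% from its upstream start. The 1 coding transcript held 81.6% of Amn, and retained-intron transcripts 18.3%. Such transcripts held 11.7% of Gata6, while Sox7 has 1 transcript.

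At these counts the division between transcripts is an estimate: of the 2 Gata4 transcripts of the middle start, the one of 3400 bases had counts in 3 clones and the one of 3374 bases in 4. It also moves TPM, since the transcripts differ in length. On the TPM scale the highest clone of Pdgfra was clone 8 instead of 6, and the lowest clones of Gata4, Sox17 and Pdgfra were others than on the CPM scale. Genes on the opposite strand overlap Gata6 (1010001N08Rik), Sox17 (Gm37587), Pdgfra (Gm42802 and Gm42803), Dab2 (Gm16311 and the pseudogene Gm18888) and Hnf4a (Hnf4aos). The kit marks strand, but whether the counting used it is not stated in the labels or headers, so these genes carry that uncertainty.

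**Figure D5:**
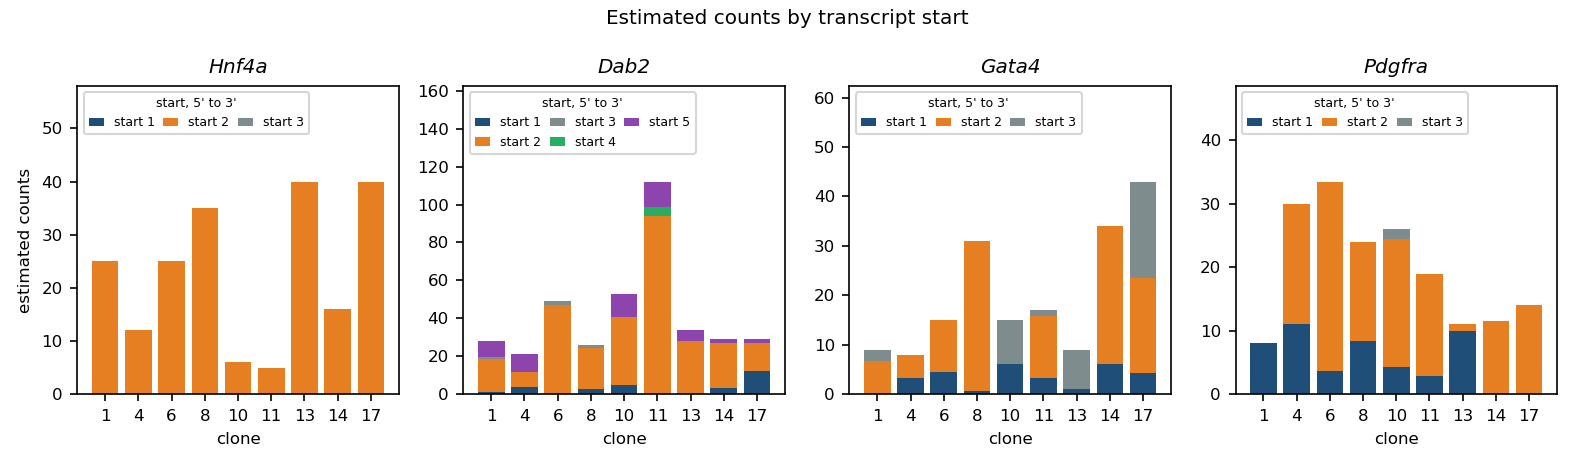
Estimated counts of Hnf4a, Dab2, Gata4 and Pdgfra in each clone, stacked by transcript start from the most upstream (start 1) to the most downstream. Hnf4a has only start 2, the proximal one, and the tall Dab2 bar of clone 11 is mostly start 2, with 94.1 of its counts.

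The genes that act before and after the lineage choice were described from lists. The 15 genes of the path from FGF4 to ERK all had a mean of 1 CPM or more and all passed the test against counting noise, as 89.4% of all genes did. None had a range of 2 or more and 7 of the 15 a range of 1 or more, against 7.93% and 35.2% of all genes, and the median range was 0.88, against 0.78. Fgf4 was highest in clone 17 (238 CPM) and lowest in clone 11 (107 CPM), Spry4, a feedback inhibitor that ERK induces, highest in clone 17 (340 CPM) and lowest in clone 4 (116 CPM), and Fgfr1, a receptor of FGF4, highest in clone 14 (147 CPM) and lowest in clone 1 (58.2 CPM). Clone 17, highest in Gata4 and Sox7, was also highest in 5 genes of this list, Fgf4, Spry2, Spry4, Dusp6 and Etv4, and lowest in 2 others, Fgfr2 (17.8 CPM, median 30.4 CPM) and Etv5 (388 CPM, median 472 CPM).

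All 7 epiblast factors passed the test, as 89.4% of all genes did. Of these factors 2 had a range of 1 or more (35.2% of all genes), and the median range of the 7 was 0.84, against 0.78 for all genes. Nanog, which opposes GATA6 in the embryo, was highest in clone 1 (537 CPM) and lowest in clone 11 (249 CPM). Clone 1 was highest in both Nanog and Gata6, where Gata6 rested on 13 counts. Pou5f1 was highest in clone 17 (1289 CPM) and lowest in clone 11 (851 CPM), Sox2 highest in clone 14 (301 CPM) and lowest in clone 11 (236 CPM), and Zfp42, a marker of the naive state, highest in clone 4 (873 CPM) and lowest in clone 11 (488 CPM). Prdm14 and Esrrb are naive pluripotency factors: Prdm14 was highest in clone 13 (27 CPM) and lowest in clone 11 (8.94 CPM), and Esrrb highest in clone 17 (716 CPM) and lowest in clone 11 (369 CPM). Klf4, the remaining gene of the list, had 82.7 CPM in clone 11, near its median of 85.1 CPM, and was lowest in clone 10 (58.1 CPM). Clone 11, highest in Dab2 and lowest in Hnf4a, was the lowest clone in 6 of the 7 epiblast factors, all but Klf4.

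Genes of the basement membrane that extraembryonic endoderm lays down are made by ES cells too. All 10 basement membrane genes had a mean of 1 CPM or more and passed the test, again beside 89.4% of all genes. Their median range was 1.04, against 0.78 for all genes, and 2 reached a range of 2, as 7.93% of all genes did. Col4a2, for a chain of type IV collagen, was highest in clone 10 (46.4 CPM) and lowest in clone 4 (8.92 CPM). Serpinh1, for the collagen chaperone HSP47, was highest in clone 10 (60.6 CPM) and lowest in clone 14 (11.7 CPM). Of the 8 parietal endoderm genes, 7 had a mean of 1 CPM or more, with a median range of 1.46. Of these, 6 passed the test and 2 reached a range of 2, against 89.4% and 7.93% of all genes. Among genes of 1 to 5 CPM on average, the band of most of them, the shares were 72.1% and 23.9%. Pth1r, the receptor of parathyroid hormone-related peptide, was highest in clone 11 (4.82 CPM) and lowest in clone 8 (0.642 CPM), and Fst, for the activin inhibitor follistatin, highest in clone 11 (11.4 CPM) and lowest in clone 6 (2.09 CPM).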

How the data were processed

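Per the labels' protocols, mRNA libraries of 9 clones were made with a stranded kit. The authors name kallisto 0.43.1, Trimmomatic 0.33, FastQC, CASAVA 1.8 and the builds GRCm38 and mm10, per the submitters' processing notes. Which annotation release was used is not stated in the labels or headers. Per the file headers, the deposited tables give an estimated count and a TPM value for each of 115270 transcripts.

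Of these, 113580 (98.53%) matched GENCODE M21 (GRCm38) by identifier and were summed per gene symbol; the rest held 0.773 to 0.641% of counts. Counts were rounded after summing, scaled by TMM factors (edgeR 4.0.16, R 4.3.3) and expressed as log2 CPM with a prior count of 2. The filter was a mean of 1 CPM. A chi-square test against Poisson sampling was adjusted over all genes passing it (Python 3.11.15, numpy 2.4.6, pandas 2.3.3, scipy 1.17.1). The steps were tested on simulated data. Alternatives were median-ratio size factors (DESeq2 1.42.0), plain totals, a prior count of 0.5, log2(TPM + 1), other filters and each clone left out. The background at 1 to 5 CPM and the check of extreme clones were added after seeing the data.

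Members and 16 lists were chosen with earlier results of these data known. Named were all members and, per list, those at 1 CPM or more on average with a range of 2 or more, else the 2 of largest range; all GATA, SOX F, PDGF and endocytic genes; Pou5f1, Sox2, Nanog, Zfp42 and Fgf4; the 3 genes nearest each testable member; and transcripts with 10% of a gene's counts. Apoe, Afp, Ttr, Apoa1, Foxa2, Pecam1, Tek, Tie1, Cdh5, Erg, Thy1, Elf5, Plac1, Lum, Dcn, Postn, Slc34a1, Klf4, Esrrb, Spry2, Dusp6, Etv4, Etv5, Fgfr2, Eomes, Hhex, Gsc, Mixl1 and Cer1 were named after their values were seen. Some genes of the lists are not reported here.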

Additional observations from a re-analysis of the deposited data

Results flagged for a closer look

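Among 25 genes checked, the 8 primitive endoderm genes included, 2 had a clone whose distance from its nearest neighbour, as a share of the whole range on the log2 scale, passed Dixon's 95% value for 9 samples. Chance alone gives about 1 in 20 such cases. Pdgfc in clone 10, at 11.1 CPM against a median of 24.1 CPM, had a share of 0.76. Zfp42 in clone 11, at 488 CPM against a median of 731 CPM, had a share of 0.52. No primitive endoderm gene passed, and the nearest was Dab2 in clone 11 with a share of 0.46.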

How the results depend on the processing

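The number of primitive endoderm genes with a range of 2 or more, 5 of 6, was 0 on the log2(TPM + 1) scale and 3 to 5 with 1 clone left out, lowest without clone 4 or clone 17. With a mean of 5 CPM required, 0 members had a range of 2 or more and 0 varied beyond counting noise, because none reached that level. Their median range of 2.2 lay between 2.35 and 1.09 over 14 alternatives. Over 104 alternative values of single ranges, every gene's range was smaller on the log2(TPM + 1) scale than in the main setting. Sox7 gave 0.91 there (2.21 in the main setting) and Hnf4a 0.83 (2.67 in the main setting). Without clone 11 the range of Dab2 was 1.19 (2.19 with it). All alternatives of the test against counting noise other than the 5 CPM filter called 6 members, or 7 with no filter. Depth limits Sox17 and Gata6 most, whose 9 clones held 44 and 84 counts. No paired analysis was possible because the clones fall into no groups that share replicate numbers.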
